A study of Mus musculus with 12 samples.

Results

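Dormant maternal mRNAs are made while the oocyte grows, stored with short poly(A) tails and translated after meiosis resumes. The 7 textbook examples described here are Plat, Spin1, Slbp, Tpx2, Orc6, Cdc6 and Hprt, whose transcripts are known to be recruited for translation during mouse oocyte maturation. They are 7 of the 18193 genes that the platform annotation pairs with at least 1 probe set naming no other gene. All their probe sets of that kind were taken, 16 of 45037 non-control probe sets on the Affymetrix mouse array. There were 2 for Plat, 4 for Spin1, 3 for Slbp, 4 for Tpx2 and 1 each for Orc6, Cdc6 and Hprt. Of the 16, 10 passed the filter on low values (log2 intensity above 5, that is above 32 units, on at least 3 of the 12 arrays), and each gene kept at least 1. The other 6 (1 of Plat, 2 of Slbp, 3 of Tpx2) were under 32 units on all arrays and were not tested.

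RNA came from eggs of CF1 mice at metaphase of the second meiotic division (MII), each sample a pool of 30. All 4 groups were injected as full-grown germinal vesicle oocytes, held in milrinone, a phosphodiesterase inhibitor that blocks the resumption of meiosis, for 20 h, and matured in vitro for 18 h. The siRNA was a control siRNA, a pool against Dcp1a, a pool against Dcp2, or the mixture of both pools (the double knockdown). Each group had 3 independent biological replicates, and the control eggs were injected and cultured like the rest, so no uninjected egg and no unmatured oocyte was measured. A value stands for a pool of eggs, so a loss in some eggs and a smaller loss in all cannot be told apart. The arrays report mRNA level and not poly(A) tail length or translation, so recruitment itself was not observed.

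Full-grown oocytes hardly transcribe, and maturation therefore runs on stored mRNA. In textbook accounts a dormant mRNA carries cytoplasmic polyadenylation elements in its 3′ untranslated region, bound by CPEB1, and is masked until maturation signals lengthen its tail and let ribosomes load. Dcp2 removes the 5′ cap of mRNAs and Dcp1a is its cofactor, and their own transcripts are also dormant and recruited at maturation, when many other maternal mRNAs are degraded. The series asked how the egg's mRNA changed when both factors were depleted while maturation proceeded. For the dormant class the question is whether mRNAs that are being recruited ended at another level without them.

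Tested probe sets of both targets read lower where their siRNA was given. The brightest Dcp1a probe set stood at 11.8% of control when its siRNA was injected alone and at 9.02% when it was combined (ratios of geometric means, as for all percentages of control given here). A second one had log2 changes of -2.87 and -2.84. It read 36.6 to 46.9 units in control eggs, just above the filter limit, and 5.2 to 5.6 with Dcp1a siRNA. Those values lay near the floor of the scale, so the size of its changes is not firm. The third tested one, which ran from 25.9 to 3376 units among the controls alone, was at 72.6% and 59.8% of control and did not pass (limma adjusted p = 0.968 and 0.785). Dcp2 lay at the floor of the scale, between 4.9 and 5 units, on the 6 arrays given its siRNA and between 30.4 and 81.8 on the other 6. Of 12 egg markers 11 were above 32 units on all 12 arrays, Figla being the exception at 5.1 to 14.5, while of 10 cumulus and granulosa markers on the array 8 were under 32 on all 12. The other two were Kitl, above 32 on 5 arrays, and Nr5a2, at 1203 to 2579.7 on all 12. The summed granulosa markers ran from 1588 to 2194 in control eggs and from 2407 to 2491 in the Dcp1a knockdown. They ran from 1725 to 2644 in the Dcp2 and from 1277 to 1539 in the double knockdown. Nr5a2 made up most of each sum, no other of these markers passing 47.8 units. The part of these sums in the results was not tested. Arrays did not all match best within their group. In 4 of 12, all 3 controls and Dcp2 knockdown replicate 2, the highest correlation across tested probe sets was with an array of another group. Control replicate 1 is the one whose absence moved most calls, from 1011 to 2451 probe sets in the double knockdown against control, so results that rest on it are given with and without it.

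Against control eggs, none of the 10 tested dormant probe sets passed the test in any knockdown (limma, Benjamini-Hochberg adjusted p under 0.05). Over all 11593 probe sets tested, 0.0518% passed after Dcp1a siRNA, 0.0173% after Dcp2 siRNA and 8.72% after both. At an unadjusted p under 0.05 the dormant probe sets numbered 0, 0 and 3, the last being the dimmest of Spin1, Tpx2 and Hprt, while 4.92%, 11.1% and 27.8% of all probe sets met that limit. The 3 treated and 3 control arrays did not overlap for 0, 2 and 0 of the 10, and for 11.6%, 7.38% and 24.8% of all probe sets. Their median log2 change in the double knockdown was 0.054, against -0.020 over all probe sets tested. The median size of the change, ignoring its sign, was 0.22 for them and 0.22 for all in the Dcp1a, 0.28 and 0.32 in the Dcp2, and 0.18 and 0.42 in the double knockdown, 4 of the 10 being probe sets of Spin1. In the single knockdowns the medians were 0.13 for Dcp1a and -0.20 for Dcp2, where all probe sets had 0.094 and -0.11. A missed threshold does not show that levels were equal: with known shifts put into simulated arrays for the double knockdown against control, 27 of 100 shifts of 2-fold and 78 of 100 shifts of 4-fold passed. In that simulation 200 of 11593 probe sets were shifted and the noise was independent between probe sets, whereas 1011 were called in the data. Its shares are therefore not the chance of a call in these arrays.

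**Figure D1:**
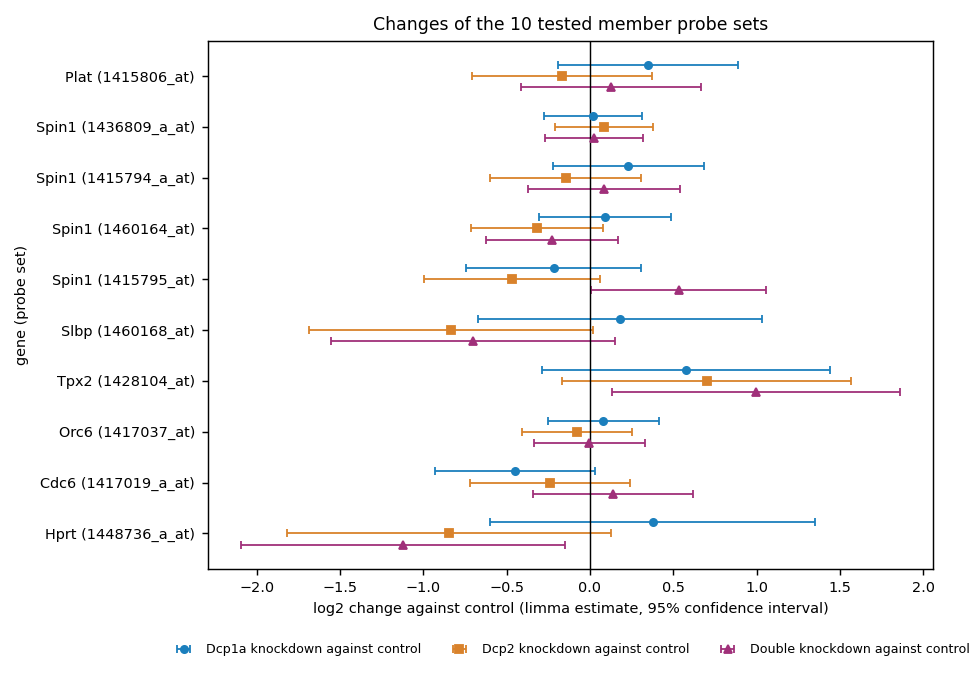
Log2 change of the 10 tested probe sets against control eggs (horizontal axis), with the limma estimate as a point and its 95% confidence interval as a bar, for the Dcp1a knockdown (circles), the Dcp2 knockdown (squares) and the double knockdown (triangles). The intervals are not adjusted for the number of tests. Only those of Spin1 probe set 1415795_at, Tpx2 and Hprt in the double knockdown leave out 0.

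Plat encodes tissue plasminogen activator, a secreted protease whose mRNA was among the first shown to gain its poly(A) tail when mouse oocytes mature. Its probe set read 13897, 9238 and 12677 units in control eggs, 13269.5, 15156 and 16638 after Dcp1a siRNA, 10199, 13616 and 8314 after Dcp2 siRNA and 11744, 10927 and 16555 after both (n = 3, replicates 1, 2 and 3 in order, here and below). Every pair of groups overlapped. The log2 changes against control were 0.35 ± 0.25 (SE) for Dcp1a, -0.17 ± 0.25 for Dcp2 and 0.13 ± 0.25 for both, with adjusted p of 0.853, 0.73 and 0.747 (limma). In the double knockdown Plat mRNA was at 109% of control, with a 95% interval of 75.2 to 159%. The second Plat probe set stayed at 4.9 to 5 units throughout.

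Spin1 encodes spindlin, an abundant protein of the egg that binds the meiotic spindle and, through its Tudor-like domains, methylated histone H3. Its mRNA exists in forms with 3′ ends of different length, and its 4 probe sets had different patterns. Probe set 1436809_a_at was the steadiest of the dormant set, at 49897, 48545 and 49465 in control eggs, 48931, 49968 and 50888 after Dcp1a siRNA, 54222, 51840.0 and 50709 after Dcp2 siRNA and 49558, 51235 and 49790.2 after both. The 3 Dcp2 knockdown arrays were above the 3 controls there, with a log2 difference of 0.084 ± 0.13 (SE) and an adjusted p of 0.75 (limma). Under quantile normalization the difference was -0.040 ± 0.15.

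The other 3 Spin1 probe sets were designed on 1 source sequence, and they too differed in their pattern over the arrays. Probe set 1415794_a_at read 57996, 40953 and 49213 in control, 57966, 57307 and 56753 after Dcp1a siRNA, 45611, 51846 and 36457 after Dcp2 siRNA and 51889, 42595 and 62855 after both, so that the Dcp1a arrays were tightly grouped while the others spread. Probe set 1460164_at read 34925, 35692 and 38096 in control eggs, 36997, 37995 and 40757 after Dcp1a siRNA, 26297, 34264 and 27075 after Dcp2 siRNA and 30079.6, 26178 and 37759.5 after both. There the 3 Dcp2 knockdown arrays lay below the 3 controls, with a log2 change of -0.32 ± 0.18 (SE, adjusted p = 0.431, limma), and 2 double knockdown arrays were below the controls as well while replicate 3 was within their range.

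The dimmest tested Spin1 probe set, 1415795_at, was the only dormant probe set called in any of the 6 comparisons. It read 942, 1045 and 1595 in control eggs, 1062, 885 and 1061 after Dcp1a siRNA, 1068, 667 and 834 after Dcp2 siRNA and 1685, 1497 and 1883 after both. The double knockdown arrays were above every array of both single knockdowns and overlapped with control replicate 3. Eggs given both siRNAs had 2.0-fold the level of eggs given Dcp2 siRNA alone, with a 95% interval of 1.39 to 2.88 (log2 change 1.00 ± 0.24, SE, adjusted p = 0.0291, limma), where 6.37% of all probe sets were called. The call was lost on leaving out any 1 of 6 arrays, all 3 of the double knockdown, Dcp2 knockdown replicates 2 and 3 and Dcp1a knockdown replicate 1, with adjusted p of up to 0.103. It was also lost under quantile normalization (adjusted p = 0.0788) and median centring (adjusted p = 0.134). The changes of the remaining Spin1 probe sets in this comparison were -0.058, 0.23 and 0.095, none of which passed.

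Against control the same probe set was at 0.53 ± 0.24 (log2, SE, adjusted p = 0.176, limma) after both siRNAs, at -0.22 ± 0.24 after Dcp1a siRNA and at -0.47 ± 0.24 after Dcp2 siRNA. The departure from additivity, the double change minus the sum of the single changes, was 1.22 ± 0.34 (adjusted p = 0.0838, limma). Without control replicate 1 it was 1.37 ± 0.34 (adjusted p = 0.0451).

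**Figure D2:**
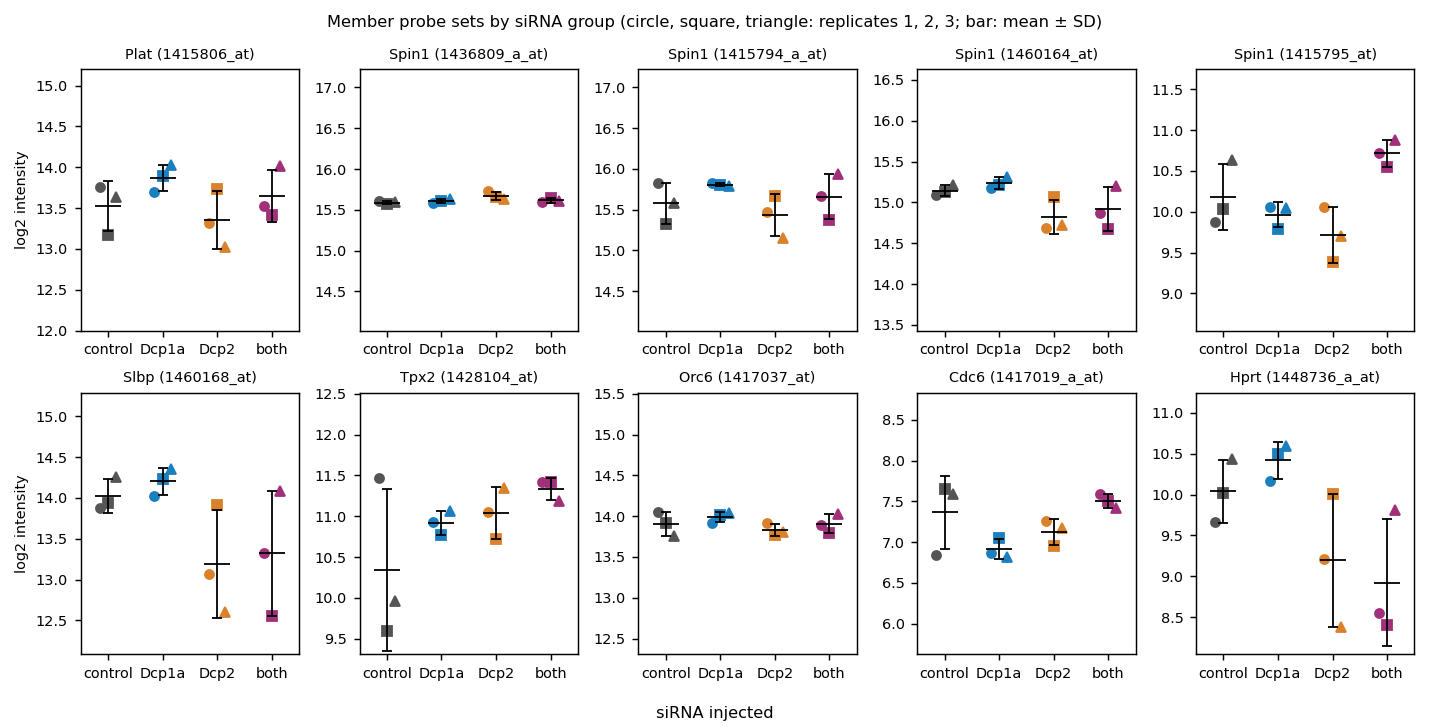
Log2 intensity (vertical axis, every panel spanning the same number of log2 units) of the 10 tested probe sets in eggs given control, Dcp1a, Dcp2 or both siRNAs (horizontal axis). Symbols are single arrays (circle, square and triangle for replicates 1, 2 and 3) and bars the mean ± SD of 3 arrays. Slbp and Hprt spread widely in the Dcp2 and double knockdowns, Tpx2 in the controls, and Orc6 and Spin1 1436809_a_at hardly at all.

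Slbp encodes the stem-loop binding protein, which holds the 3′ end of replication-dependent histone mRNAs and accumulates in the maturing egg. Its bright probe set read 15038, 15709 and 19591 in control eggs and 16624, 19206 and 20994 after Dcp1a siRNA, against 8560.2, 15372 and 6224 after Dcp2 siRNA and 10290.3, 6024 and 17369 after both. Both groups given Dcp2 siRNA were split: Dcp2 knockdown replicates 1 and 3 and double knockdown replicates 1 and 2 were below every other array, while Dcp2 knockdown replicate 2 and double knockdown replicate 3 lay among the controls. Mean levels were 56.1% of control (95% interval 31.1 to 101%) after Dcp2 siRNA and 61.5% (34.1 to 111%) after both. The log2 changes, -0.83 ± 0.39 and -0.70 ± 0.39 (SE), did not pass (adjusted p = 0.425 and 0.249, limma). In the Dcp1a knockdown the change was 0.18 ± 0.39. The 2 other Slbp probe sets read 4.9 on all 12 arrays.

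Hprt encodes hypoxanthine phosphoribosyltransferase, the purine salvage enzyme, and its mRNA is another early example of polyadenylation at maturation. Of the 10 probe sets it had the lowest fitted change in the double knockdown, and its arrays were split like those of Slbp. Intensities were 814, 1036 and 1391 in control eggs, 1149.8, 1439.7 and 1548 after Dcp1a siRNA, 591, 1027 and 332 after Dcp2 siRNA and 373, 339 and 899.6 after both. Every double knockdown array was below every Dcp1a knockdown array, but replicate 3 lay within the range of the controls. Against control the level was 45.9% in the double knockdown, with a 95% interval of 23.4 to 90.2% (log2 change -1.12 ± 0.44, SE, adjusted p = 0.139, limma). In the Dcp2 knockdown it was 55.6% (28.3 to 109%, adjusted p = 0.426, limma) and in the Dcp1a knockdown 130% (66.1 to 255%). Without double knockdown replicate 3 the change was -1.57 ± 0.41 and passed (adjusted p = 0.0411, limma), with 10.2% of all probe sets called. It also passed when arrays were weighted by their fit to their group (adjusted p = 0.00629), a setting that called 4037 probe sets in all against 1011.

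Slbp, Hprt and Spin1 probe set 1460164_at shared this pattern over the arrays. Across the 12 arrays log2 values of Slbp had r = 0.97 with that Spin1 probe set and r = 0.94 with Hprt, and 0.95 and 0.93 after each group's mean was removed. Hprt and the Spin1 probe set had r = 0.91 (0.88 within groups). Plat was instead most like Spin1 probe set 1415794_a_at (r = 0.94, and 0.90 within groups). These pairs are the 4 highest of 45, all read on the same 12 hybridisations, so differences between arrays are shared by both probe sets of a pair. Mean intensity over the whole array was 434, 402 and 416 in control. After Dcp2 siRNA it was 400 and 384 on the low replicates 1 and 3 and 419 on replicate 2. After both it was 413 and 401 on the low replicates 1 and 2 and 433 on replicate 3. In the same order the array's quality probe set for the 3′ part of Gapdh read 2854, 1227 and 1371 in control. It read 3731 and 3434 against 1875 after Dcp2 siRNA, and 4377 and 4857 against 3314 after both. The part of either in the pattern was not tested.

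**Figure D3:**
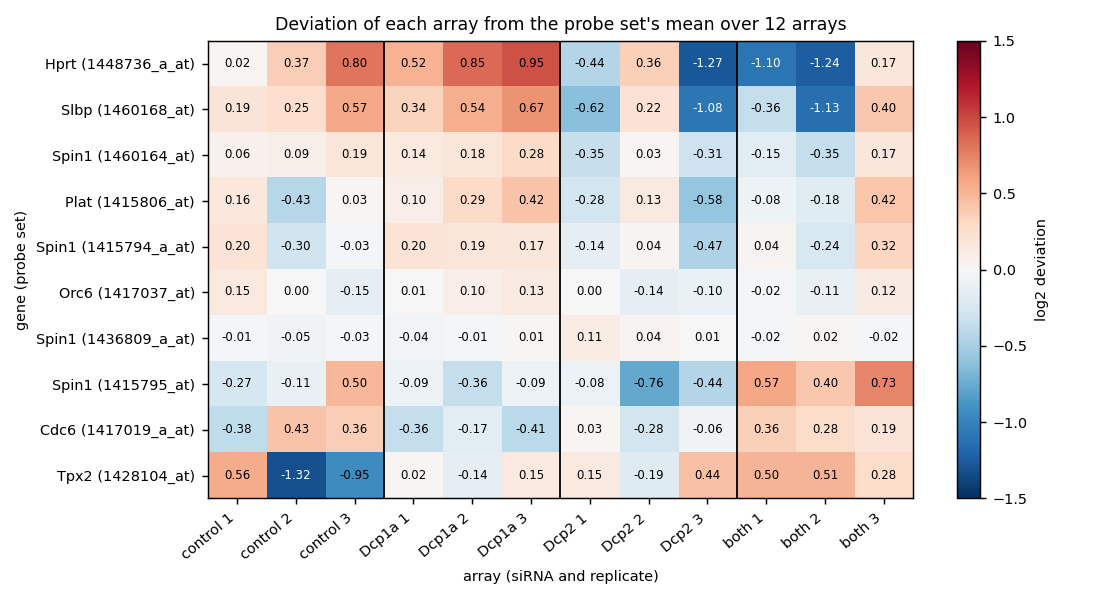
Deviation of each array (columns) from the mean of the probe set over all 12 arrays, in log2 units, for the 10 tested probe sets (rows), with red above and blue below the mean. Hprt, Slbp and Spin1 1460164_at are low together on Dcp2 knockdown replicates 1 and 3 and double knockdown replicates 1 and 2, and Tpx2 is low on control replicates 2 and 3.

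Tpx2 encodes a spindle assembly factor that is released from importins by Ran-GTP and activates Aurora A kinase, and its protein builds up as the meiotic spindle forms. Its informative probe set read 2836, 772 and 997 in control eggs, 1950.2, 1745 and 2135 after Dcp1a siRNA, 2129, 1686 and 2603 after Dcp2 siRNA and 2730.1, 2736 and 2328 after both. Control replicate 1 was the highest of all 12 arrays and control replicates 2 and 3 the lowest, so the control group alone spanned the whole range. Over all 12 arrays the level in the double knockdown was 2.0-fold that of control, with a 95% interval of 1.10 to 3.64 (log2 change 1.00 ± 0.39, SE, adjusted p = 0.139, limma). The log2 changes of the single knockdowns were 0.58 ± 0.39 for Dcp1a and 0.70 ± 0.39 for Dcp2 (adjusted p = 0.853 and 0.431).

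Without control replicate 1, Tpx2 passed in all 3 knockdowns. The log2 changes were then 1.14 ± 0.22 in the Dcp1a, 1.26 ± 0.22 in the Dcp2 and 1.56 ± 0.22 in the double knockdown (SE, adjusted p = 0.0302, 0.0298 and 0.00222, limma), with 3.21%, 1.92% and 21.1% of all probe sets called. Without control replicate 2, by contrast, the double knockdown stood at 0.62 ± 0.38 (adjusted p = 0.384). With array weights it was 1.34 ± 0.26 (adjusted p = 0.00429). All 3 comparisons use the same control arrays and are not independent. The array's quality probe set for the 3′ part of Gapdh was also higher on control replicate 1, but not higher there than after both siRNAs. It read 2854, 1227 and 1371 on the controls and 3314 to 4857 after both siRNAs. The log2 excess of its 3′ over its middle probe set was 3.95 on control replicate 1 and 4.81 and 4.69 on the others, and the part of either in the Tpx2 values was not tested. The 3 dim Tpx2 probe sets ranged from 5.1 to 30.6 units.

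**Figure D4:**
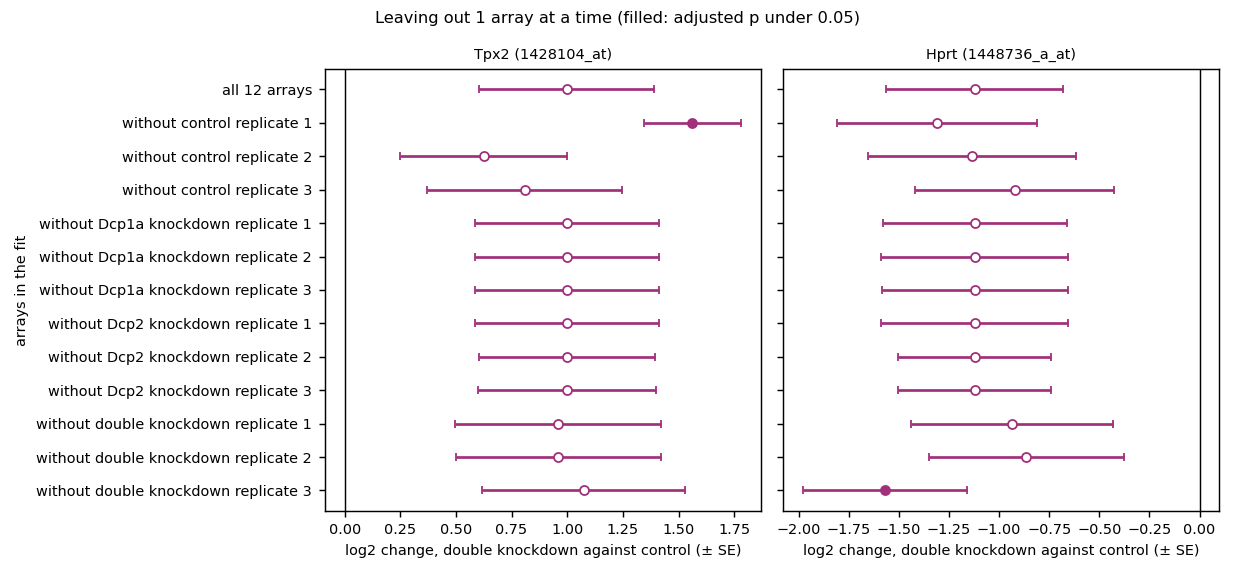
Log2 change of Tpx2 (left) and Hprt (right) in the double knockdown against control (horizontal axis, ± SE) with all 12 arrays and with each array left out in turn (rows). Filled symbols have an adjusted p under 0.05: Tpx2 without control replicate 1 and Hprt without double knockdown replicate 3.

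Orc6 and Cdc6 act in licensing replication origins: Orc6 is a subunit of the origin recognition complex, and Cdc6 joins that complex to load the MCM helicase. Both are known as maternal mRNAs translated during maturation, before the S phase of the one-cell embryo. Orc6 was among the steadiest, with 17014, 15411 and 13879.7 in control eggs, 15463, 16506 and 16859.5 after Dcp1a siRNA, 15397, 13999 and 14342 after Dcp2 siRNA and 15201, 14216 and 16717 after both. Each knockdown overlapped with the controls. The double knockdown was at 99.8% of control with a 95% interval of 79.3 to 126%. For Orc6 a change of 2-fold in either direction was outside the intervals of all 3 knockdowns, which were 84.0 to 133% of control for Dcp1a and 75.3 to 119% for Dcp2. With all arrays included, the same held for Plat, for Cdc6 and for Spin1 probe sets 1436809_a_at, 1415794_a_at and 1460164_at. For Cdc6 it held narrowly in the Dcp1a knockdown, where the interval was 52.4 to 102% of control. Without control replicate 1 the log2 change of Cdc6 in that knockdown was -0.71 ± 0.17 (SE), closer to a 2-fold loss. The exclusion of a 2-fold change is therefore not firm for Cdc6.

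Cdc6 was the dimmest tested member, and its lower level in the Dcp1a knockdown did not pass. It read 115, 202 and 193 in control eggs, 117, 133 and 113 after Dcp1a siRNA, 153, 123 and 144 after Dcp2 siRNA and 192, 182 and 171 after both. Control replicate 1 was as low as the Dcp1a arrays and the other controls as high as the double knockdown. The log2 changes against control were -0.45 ± 0.22, -0.24 ± 0.22 and 0.14 ± 0.22 (SE, adjusted p = 0.853, 0.567 and 0.69, limma). Without control replicate 1 they were -0.71 ± 0.17, -0.50 ± 0.17 and -0.12 ± 0.17 (SE, adjusted p = 0.0504, 0.125 and 0.62, limma). The first of these lay just over the threshold, so the missed call in the Dcp1a knockdown depends on that array. The departure from additivity was 0.83 ± 0.31 (adjusted p = 0.259) and, without control replicate 1, 1.09 ± 0.22 (adjusted p = 0.0197, limma), where 5.4% of all probe sets were called. Against the Dcp1a knockdown Cdc6 also passed once control replicate 1, which enters that comparison through the shared variance only, was left out (adjusted p = 0.0268, limma), with 13.9% of all called.

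When group means were ordered for each probe set, neighbouring groups overlapped throughout, so the orders that follow are only descriptive. The Dcp2 knockdown was lowest for Plat, Slbp, Orc6 and all Spin1 probe sets but 1436809_a_at, and the Dcp1a knockdown was highest for Plat, Slbp, Orc6, Hprt and Spin1 probe sets 1415794_a_at and 1460164_at. Cdc6 was lowest in the Dcp1a knockdown and Tpx2 in the controls. Tpx2, Cdc6 and Spin1 1415795_at were highest, and Hprt lowest, in the double knockdown, and Spin1 1436809_a_at ran from the controls up to the Dcp2 knockdown. Against control 8 of the 10 were higher after Dcp1a siRNA and 2 after Dcp2 siRNA. Over all probe sets 62.1% and 39.9% were higher, so the directions are those of the whole array. With median centring Orc6 changed sign against control in both single knockdowns (-0.036 and 0.096), and Plat did in the Dcp2 knockdown (0.0094).

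Directly comparing the double knockdown with each single one asked what the second siRNA added. Relative to the Dcp1a knockdown none of the 10 probe sets passed, against 12.1% of all. An unadjusted p under 0.05 was found for 4 (Hprt, Spin1 1415795_at, Cdc6 and Slbp), against 31.8% of all. Hprt was nearest, with 35.4% of the Dcp1a knockdown level (95% interval 18.0 to 69.5%, adjusted p = 0.0502, limma) and no overlap between the groups. Spin1 1415795_at had a log2 change of 0.75 ± 0.24, Cdc6 of 0.59 ± 0.22 and Slbp of -0.88 ± 0.39 (SE, adjusted p = 0.0651, 0.0988 and 0.147, limma). Groups were apart for Hprt, Spin1 1415795_at, Cdc6 and Tpx2, 4 of 10, while 48.6% of all probe sets had groups apart in this comparison. Hprt passed without double knockdown replicate 3 (log2 change -1.95 ± 0.41, adjusted p = 0.0137), as did Slbp (-1.26 ± 0.36, adjusted p = 0.0384, limma), with 19.8% of all called. Hprt also passed without Dcp2 knockdown replicate 2 or 3 and with the filter at log2 6, median centring, quantile normalization, array weights or only the 6 arrays compared, with adjusted p from 1.38e-05 (array weights) to 0.0498 (the filter). Spin1 1415795_at passed with quantile normalization, array weights or only the 6 arrays compared, and without control replicate 3 or Dcp2 knockdown replicate 2. Its adjusted p there ran from 0.000245 to 0.0431 (limma). Cdc6, besides the pass given above, passed with array weights (adjusted p = 0.000191) and with only the 6 arrays compared (adjusted p = 0.02185). Array weights called 7 of the 10 dormant probe sets and 7079 of all 11593.

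Relative to the Dcp2 knockdown only Spin1 1415795_at passed, as given above. It and Cdc6 were the 2 of 10 whose groups did not overlap there, against 21.2% of all probe sets, and it alone had an unadjusted p under 0.05, against 15.8% of all. Slbp and Hprt, split alike in both groups, had fitted differences of 0.13 ± 0.39 and -0.28 ± 0.44 (log2, SE, adjusted p = 0.94 and 0.878, limma). No dormant probe set passed the limma test of departure from additivity, against 3.93% of all. An unadjusted p under 0.05 was found for 2 (Spin1 1415795_at and Cdc6), against 11.6% of all.

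Other dormant or maturation-recruited mRNAs were taken from a list of 18 genes, each listed gene being read, here and below, on its brightest tested probe set. Of 16 tested in the double knockdown against control, 0 rose and 2 fell, and those that fell were the siRNA targets Dcp1a and Dcp2. The Dcp2 probe set passed the filter only through arrays without Dcp2 siRNA, and its fall was to the floor. With values under 32 set to 32 that fall was -0.45 (log2) and did not pass (limma adjusted p = 0.38). For this and the following lists the shares to set beside the counts are 8.72% of all probe sets called and 27.8% at an unadjusted p under 0.05. The list's median log2 change was -0.027, against 0.00073 over all 6998 genes tested. In each single knockdown the targeted gene was the only one of this list to fall and none rose. Dcp1a in its own knockdown lost its call in 15 of 21 refits (adjusted p up to 0.472), with log2 changes from -3.39 to -2.74. Dcp2 lost its call in 7 of 20, with a log2 change of -0.45 where values under 32 were set to 32 and of -3.12 in the others that lost it. Dazl, a germ-cell RNA-binding protein that promotes translation in the egg, was lower after both siRNAs than after Dcp1a siRNA alone (log2 change -1.28 ± 0.36, SE, adjusted p = 0.0427, limma), a call that was lost without any of the Dcp1a knockdown arrays, control replicates 2 and 3, Dcp2 knockdown replicate 1 or double knockdown replicates 1 and 2 (adjusted p up to 0.154 on leaving out 1 array).

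Among 24 tested genes of cytoplasmic polyadenylation and translational control, 1 rose and 0 fell in the double knockdown (median 0.015, 6 at an unadjusted p under 0.05). The gene that rose was Ybx2, which encodes a germ-cell Y-box protein that coats and stores maternal mRNA. It read 298, 96 and 125 in control eggs and 552, 477 and 531 in the double knockdown (log2 change 1.76 ± 0.41, SE, adjusted p = 0.0223, limma). The groups did not overlap, and the call was lost without control replicate 2 or 3 or double knockdown replicate 1 or 2 (adjusted p up to 0.101 on leaving out 1 array). Relative to the Dcp1a knockdown the cleavage and polyadenylation factor genes Cpsf3 (log2 change 1.10 ± 0.22, SE, adjusted p = 0.00901, limma) and Cpsf4 (1.14 ± 0.26, SE, adjusted p = 0.0157, limma) were higher. Cpsf3 passed in all 21 refits, while Cpsf4 was lost without Dcp1a knockdown replicate 1 or 3 or double knockdown replicate 1 or 2. Ddx6, a helicase of stored mRNPs and P-bodies, was lower (-0.91 ± 0.24, SE, adjusted p = 0.0302, limma), and lost its call without any 1 of the 6 arrays compared. None of the genes on this list passed in a single knockdown.

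The partners of Orc6 and Cdc6 in origin licensing and replication initiation numbered 22, and 0 rose and 0 fell in the double knockdown by the limma test, with a median of -0.061 and 6 at an unadjusted p under 0.05. The one with the smallest p was Orc2, another origin recognition subunit, at 1585, 2626 and 1552 in control eggs and 1229, 1131 and 626 in the double knockdown. All of the latter were below the controls, but the change of -0.96 ± 0.31 did not pass (log2, SE, adjusted p = 0.0802, limma), and its other tested probe set was at 0.28. Mcm5, a helicase subunit, was higher in the double than in the Dcp1a knockdown (1.17 ± 0.25, SE, adjusted p = 0.0109, limma), and was lost without Dcp1a or double knockdown replicate 2.

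For the spindle assembly partners of Tpx2, 1 of 14 tested rose and 0 fell (median 0.14, 4 at an unadjusted p under 0.05). Kpnb1, an importin gene, read 568, 828 and 646 in control eggs and 1604, 962 and 1515 in the double knockdown by its brightest probe set (log2 change 0.98 ± 0.24, SE, adjusted p = 0.0257, limma). Its other probe sets were at -0.96 and 0.34 and did not pass, so the probe sets of this gene disagree. The call was lost without control replicate 3 or double knockdown replicate 1 or 3 (adjusted p up to 0.111 on leaving out 1 array).

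Of 13 tested genes that act with Slbp in the processing of histone mRNA 3′ ends, 1 rose and 0 fell in the double knockdown (median -0.067, 6 at an unadjusted p under 0.05). The gene that rose was Lsm10, a subunit of the U7 particle that guides the cut, at 24.6, 16.2 and 38.4 in control eggs, 30.3, 27.5 and 31 after Dcp1a siRNA, 42.5, 18.2 and 34.6 after Dcp2 siRNA and 190.1, 310.3 and 176 after both. Since the controls lay around the filter limit of 32 units, the rise is given as at least 6.42-fold. This is the mean log2 value of the double knockdown minus that of the controls with values under 32 set to 32. The fit on the deposited values had a log2 change of 3.14 ± 0.37 (SE, adjusted p = 0.000644, limma). All 3 arrays given both siRNAs were above all 9 others, and the call held in all 21 refits. Relative to the Dcp1a knockdown Lsm10, Cpsf3 and the Sm protein gene Snrpb (log2 change 0.83 ± 0.19, SE, adjusted p = 0.0189, limma) were higher, the last losing its call without any of the Dcp1a knockdown arrays or double knockdown replicate 2.

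Other settings ended some of these calls too. With no filter on low values Ybx2 and Kpnb1 against control and Dazl, Cpsf4, Ddx6, Mcm5 and Snrpb against the Dcp1a knockdown no longer passed (adjusted p = 0.158, 0.108, 0.221, 0.0775, 0.116, 0.0548 and 0.0501, limma). With only the arrays compared Ybx2, Kpnb1 and Dazl did not pass, and with median centring or quantile normalization Ddx6 did not.

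The remaining partners held no called gene in any of the 6 comparisons. Of 9 listed genes of plasminogen activation only 2 passed the filter, Anxa2 and Lrp1, the endocytic receptor that clears plasminogen activators. Lrp1 read 572, 162 and 322 in control eggs and 684, 700.2 and 568 in the double knockdown (log2 change 1.06 ± 0.36, SE, adjusted p = 0.0914, limma), with overlapping groups. Without control replicate 1 it passed (adjusted p = 0.00582, limma). Of 4 genes of the Spindlin family and its partners 2 were tested, and Spindoc, whose product binds spindlin, lay around the floor. Of 10 tested genes of purine salvage and synthesis, the pathway of Hprt, 0 rose and 0 fell (limma, median 0.11, 1 at an unadjusted p under 0.05). Adss, an adenylosuccinate synthetase, read 2357, 2249 and 2562 in control eggs, 1149, 2329.7 and 962 after Dcp2 siRNA and 1207, 1028 and 1909 after both, so its lowest 4 arrays were those of Hprt (log2 change against control -0.84 ± 0.32, adjusted p = 0.128, limma).

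For each member the 3 genes with the most similar pattern over the 12 arrays were taken from 6781 tested genes, by Pearson r of log2 values of the brightest probe set. They describe these arrays, which share all hybridisation effects, and are given without a test. For Slbp they were Hmgb3, Snx4 and Glcci1 (r = 0.990 to 0.991) and for Hprt Ccp110, Nfkbiz and Cmtr2 (r = 0.989 to 0.992). For Tpx2 they were Cdk2ap2, Ppp4c and Tprn (r = 0.994 to 0.996) and for Plat Plekha8, Oas1e and Lmtk2 (r = 0.974 to 0.985). Likeness was lower for Cdc6, with Pigo, Myom2 and Grina (r = 0.896 to 0.933), for Orc6, with Jak1, Med21 and Mad2l1 (r = 0.876 to 0.894), and for the steady Spin1 probe set, with Marcks, Zfp3 and Pi4kb (r = 0.824 to 0.883). Mad2l1, like Orc6 in pattern, encodes a spindle checkpoint protein.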

How the data were processed

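The authors deposited 1 intensity per probe set and array, made with GCRMA (background correction by probe sequence, normalization between arrays and summary of probes), per the submitters' processing notes. Version and settings: not given in the sources used here. Values run on a linear scale from a floor of 4.9, and 55.6% of all were at or under 5. Normalization makes each value relative to its array, so total mRNA per egg was not measured. The RNA was amplified by the Affymetrix small-sample protocol, per the labels' protocols. The number of arrays limits the precision.

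The deposited intensities were used as log2 values. After removal of 64 control probe sets from 45101, a log2 value above 5 on at least 3 arrays was required, which 11593 met. Group means over all 12 arrays were compared with limma 3.58.1 in R 4.3.3 (8 residual and 2.96 prior degrees of freedom, no trend), two-sided, with Benjamini-Hochberg adjustment over all tested probe sets and a threshold of 0.05. The members, lists and tests were chosen with earlier results of these data known. Names came from the platform annotation: 34945 probe sets had 1 symbol, 932 several and 9160 none, and no member shared a probe set with another symbol. All 7 genes matched RefSeq (GRCm38.p6) by Entrez number with the same symbol. Named were all members, the 3 genes most like each, and from each list up to 4 genes called in the double knockdown against control or, failing any, the one with the smallest p. Genes called in other comparisons were named after their values were seen. Alternatives changed the filter, the floor, the normalization, the variance model, array weights, the replicate block and the arrays included. A check on simulated data used the same 11593 probe sets and recovered known shifts in part. The labels name no batch. No sequence is printed, since 3′ untranslated regions, where the control elements of dormant mRNAs lie, were not used here.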

Additional observations from a re-analysis of the deposited data

How the results depend on the processing

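Of the member probe sets' changes, 1145 of 1250 refits kept their direction and their side of the threshold. None of their 64 changes of sign involved a call on either side. Calls over the whole array numbered 6 for Dcp1a knockdown against control, 1 with no filter on low values, 0 with the filter at log2 6, 0 with values under 32 set to 32, 1 with array weights, 1 with replicate block, 2 with only the arrays compared, and 1 to 372 on leaving out 1 array. Calls over the whole array numbered 2 for Dcp2 knockdown against control, 1 with the filter at log2 6, 0 with values under 32 set to 32, 1 with median centring, 1 with quantile normalization, 0 with only the arrays compared, and 0 to 223 on leaving out 1 array. Calls over the whole array numbered 1011 for double knockdown against control, 527 with no filter on low values, 4037 with array weights, 277 with only the arrays compared, and 444 to 2451 on leaving out 1 array. Calls over the whole array numbered 1398 for double against Dcp1a knockdown, 842 with no filter on low values, 7079 with array weights, 2779 with only the arrays compared, and 702 to 2298 on leaving out 1 array. Calls over the whole array numbered 739 for double against Dcp2 knockdown, 489 with no filter on low values, 2564 with array weights, and 471 to 863 on leaving out 1 array. Calls over the whole array numbered 456 for the interaction, 160 with no filter on low values, 988 with array weights, and 252 to 626 on leaving out 1 array. Calls among the dormant probe sets numbered 0 for Dcp1a knockdown against control, and 0 to 1 on leaving out 1 array. Calls among the dormant probe sets numbered 0 for Dcp2 knockdown against control, and 0 to 1 on leaving out 1 array. Calls among the dormant probe sets numbered 0 for double knockdown against control, 2 with array weights, and 0 to 1 on leaving out 1 array. Calls among the dormant probe sets numbered 0 for double against Dcp1a knockdown, 1 with the filter at log2 6, 1 with median centring, 2 with quantile normalization, 7 with array weights, 3 with only the arrays compared, and 0 to 2 on leaving out 1 array. Calls among the dormant probe sets numbered 1 for double against Dcp2 knockdown, 0 with no filter on low values, 0 with median centring, 0 with quantile normalization, 0 with only the arrays compared, and 0 to 1 on leaving out 1 array. Calls among the dormant probe sets numbered 0 for the interaction, 2 with array weights, and 0 to 2 on leaving out 1 array. With median centring, values of the other sign were Spin1 1436809_a_at -0.098 (Dcp1a knockdown against control), Spin1 1460164_at -0.026 (Dcp1a knockdown against control), Orc6 -0.036 (Dcp1a knockdown against control), Plat 0.0094 (Dcp2 knockdown against control), Spin1 1415794_a_at 0.028 (Dcp2 knockdown against control), Orc6 0.096 (Dcp2 knockdown against control), Spin1 1436809_a_at -0.0097 (double knockdown against control), Spin1 1460164_at -0.11 (double against Dcp2 knockdown), Slbp -0.079 (double against Dcp2 knockdown), Orc6 -0.14 (double against Dcp2 knockdown), Spin1 1460164_at -0.089 (interaction). With quantile normalization, values of the other sign were Spin1 1436809_a_at -0.078 (Dcp1a knockdown against control), Spin1 1436809_a_at -0.040 (Dcp2 knockdown against control), Spin1 1436809_a_at -0.062 (double knockdown against control), Spindoc -0.0080 (double knockdown against control), Spin1 1436809_a_at 0.056 (interaction), Spin1 1415794_a_at 0.098 (interaction), Spin1 1460164_at -0.021 (interaction). With array weights, values of the other sign were Orc6 0.034 (Dcp2 knockdown against control), Orc6 0.034 (double knockdown against control), Spin1 1436809_a_at -0.0012 (double against Dcp1a knockdown), Slbp 0.12 (interaction). With values under 32 set to 32, values of the other sign were Spindoc -0.12 (double knockdown against control). Leaving out 1 array turned the sign in some refits, with ranges of Spin1 1415795_at -0.37 to 0.010 (Dcp1a knockdown against control), Plat -0.35 to 0.0027 (Dcp2 knockdown against control), Orc6 -0.078 to 0.069 (double knockdown against control), Cdc6 -0.12 to 0.28 (double knockdown against control), Plat -0.054 to 0.25 (double knockdown against control), Spin1 1415794_a_at -0.057 to 0.22 (double knockdown against control). Further ranges were Spindoc -0.35 to 0.63 (double knockdown against control), Spin1 1436809_a_at -0.0072 to 0.021 (double against Dcp1a knockdown), Hprt -0.72 to 0.13 (double against Dcp2 knockdown), Slbp -0.25 to 0.51 (double against Dcp2 knockdown), Spin1 1460164_at -0.048 to 0.22 (double against Dcp2 knockdown), Slbp -0.43 to 0.34 (interaction). Further ranges were Plat -0.24 to 0.13 (interaction), Spin1 1415794_a_at -0.14 to 0.14 (interaction), Tpx2 -0.84 to 0.095 (interaction), Spin1 1460164_at -0.14 to 0.13 (interaction), Orc6 -0.078 to 0.069 (interaction). Median centring subtracted from every change the difference in array medians, 0.12 (log2) in the Dcp1a and -0.17 in the Dcp2 knockdown against control and 0.21 in the double against the Dcp2 knockdown. The labels do not say whether replicate numbers pair the samples. Deviations from group means correlated from -0.69 to 0.39 (median 0.085) over 18 pairs of the same number, of which 9 were over 0.1. Over 36 pairs of different numbers they correlated from -0.51 to 0.72 (median 0.022), of which 14 were over 0.1. These overlapping ranges do not decide whether the numbers mark pairs. With the number as a replicate block no call of a dormant probe set changed, while Dcp1a in its own knockdown (adjusted p = 0.176), Kpnb1 in the double knockdown against control (0.0582) and Dazl and Ddx6 in the double against the Dcp1a knockdown (0.077 and 0.0606) did not pass (limma). Settings that leave out 1 array use the spread pooled over all groups. The cause of these shifts was not tested.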
